A study of Mus musculus with 8 samples.

Results

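A set of 40 genes for protein folding was compared between Nrp-1+ and Nrp-1- induced regulatory T cells (iTreg). The genes were chosen by name, as the gene symbols for heat shock proteins, the cytosolic chaperonin, mitochondrial chaperones, chaperones of the endoplasmic reticulum (ER) and the sensors of the unfolded protein response, and all 40 were found among the 23361 gene symbols of the expression table. The rule used names only, though earlier results of these data were known when the names were chosen. They comprised 8 cytosolic heat shock genes, 8 chaperonin subunits, 4 mitochondrial chaperones, 15 ER chaperones and folding enzymes, and 5 genes of the unfolded protein response, namely its sensors, Xbp1 and Herpud1.

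Chaperones bind proteins that are not yet folded, or have come unfolded, and use cycles of ATP binding and release to bring them to their native shape. Hsf1 controls the stress-induced part of the cytosolic HSP70 and HSP90 systems, while the ER has its own set under the unfolded protein response. There the membrane proteins Ire1 (Ern1), Perk (Eif2ak3) and Atf6 detect misfolded protein. Ire1 splices Xbp1 mRNA, and the resulting Xbp1 protein, together with cleaved Atf6, switches on ER chaperone genes. Activated T cells enlarge both systems as they grow and begin to secrete cytokines.

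Both groups came from spleen cells of wild-type (WT) mice of the B6 strain with a Foxp3-RFP reporter. The mice were male and aged 7 to 8 weeks. Naive CD44low CD62Lhigh CD4+ T cells were sorted and stimulated with anti-CD3/CD28 beads in the presence of 50 U/ml IL-2 and 2 ng/ml TGF-β for 3 days, and viable CD4+ Foxp3-RFP+ cells were then divided by surface Nrp-1. The dose and time are those of the labels: the study's methods give IL-2 by weight rather than in units, and the time given for every sample is day 5, which differs from the culture time of the protocol. Each subset had 4 libraries described as biological replicates, and no source used here states whether they came from separate mice or cultures, so p-values measure only the spread between these samples.

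Values are FPKM, fragments per kilobase of transcript scaled to the mapped fragments of a library, and are given as mean ± SD over 4 libraries where not listed by library. The sorted gene and the lineage gene were measured first. Nrp1 mRNA was 21.5 ± 0.709 FPKM in the Nrp-1+ libraries against 4.95 ± 0.262 FPKM in the Nrp-1- libraries, as the sort on its protein chose. Foxp3, the transcription factor that defines regulatory T cells, stood at 115.8 ± 3.72 and 108.8 ± 1.20 FPKM and was called higher in Nrp-1+ iTreg without overlap (log2 fold change 0.09, limma adjusted p = 0.0245). Of 12 listed markers of CD4 T cells and regulatory T cells, Nrp1 and Foxp3 included, 11 were tested, of which 5 were higher and 3 lower. Among all genes tested, 20.9% were called higher and 20% lower. The FPKM table carries no read totals, and the spacing of low values put the relative depth of the libraries between 0.81 and 1.24. Short non-coding RNA genes took between 1.77% and 43.9% of the summed FPKM of a library. Markers of other cell types were low: B cell markers summed to between 5.23 and 5.94 FPKM in Nrp-1+ iTreg and between 4.01 and 5.83 FPKM in Nrp-1- iTreg, with Ms4a1 and Pax5 at 0 in all 8 libraries, and plasma cell markers to between 2.09 and 2.37 against 2.65 and 3.19 FPKM, with Tnfrsf17 at 0 in all 8. CD8 and NK cell markers summed to between 11.5 and 12.9 FPKM against 13.8 and 16.6 FPKM, and myeloid markers to between 7.37 and 8.36 FPKM against 6.69 and 8.44 FPKM. Of the CD8 and NK cell markers, 2 were expressed enough to be tested and 1 was lower. Of the 1 tested for each other type, the plasma cell marker was lower, the myeloid marker higher and the B cell marker not called. Replicate 4 of Nrp-1+ iTreg held the lowest value of its group for 17 of the 40 folding genes, and replicate 1 of Nrp-1- iTreg for 16.

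Several promoters of the ER genes carried a sequence not found in the windows of the other groups. Promoter windows, from 250 bases before to 50 bases after an annotated start in RefSeq on build GRCm38.p6, were present for 31 of the 40 genes. The ER stress response element, at which NF-Y and Atf6 or Xbp1 bind, was searched on both strands as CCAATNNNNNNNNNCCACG, with N for any base. It occurred in 0.137% of the 27025 genes with a window and in 7 of the folding genes. All 7 belonged to the ER group, where 13 genes had a window, and none of the 4 cytosolic heat shock, 7 chaperonin, 3 mitochondrial and 4 unfolded protein response genes with a window held it. The matches are shown because they are the letters that these ER promoters share, each written 5′ to 3′ on the strand of the match with the fixed letters in capitals.
Calr: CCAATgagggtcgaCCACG
Canx: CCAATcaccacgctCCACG
Creld2: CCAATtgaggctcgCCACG
Dnajc3: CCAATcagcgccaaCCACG
Hsp90b1: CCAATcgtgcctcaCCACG
Hsp90b1: CCAATcgcaaggagCCACG
Hspa5: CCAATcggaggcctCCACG
Pdia6: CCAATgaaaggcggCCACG
On build GRCm38.p6 the matches lay at chr8:84847075-84847093 (plus) for Calr, at chr11:50325800-50325818 (minus) for Canx, at chr15:88819520-88819538 (minus) for Creld2, at chr14:118937827-118937845 (plus) for Dnajc3, at chr10:86705533-86705551 (plus) for Hsp90b1, at chr10:86705638-86705656 (minus) for Hsp90b1, at chr2:34772025-34772043 (plus) for Hspa5 and at chr12:17266491-17266509 (plus) for Pdia6. Hsp90b1 held a pair of them, which face opposite ways in its window.

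By a rule of most matches per group, with Hspd1 shown where it tied with Hspe1, the promoter windows of Hsp90b1, Hsph1, Hspd1 and Cct2 are printed on the strand of the gene, with matched letters in capitals. The windows lie at chr10:86705395-86705694 (minus strand) for Hsp90b1, chr5:149636266-149636565 (minus) for Hsph1, chr1:55087883-55088182 (minus) for Hspd1 and chr10:117063326-117063625 (minus) for Cct2. The capitals mark the ER stress response element in Hsp90b1 and the heat shock element, the binding sequence of Hsf1, in the others.
Hsp90b1: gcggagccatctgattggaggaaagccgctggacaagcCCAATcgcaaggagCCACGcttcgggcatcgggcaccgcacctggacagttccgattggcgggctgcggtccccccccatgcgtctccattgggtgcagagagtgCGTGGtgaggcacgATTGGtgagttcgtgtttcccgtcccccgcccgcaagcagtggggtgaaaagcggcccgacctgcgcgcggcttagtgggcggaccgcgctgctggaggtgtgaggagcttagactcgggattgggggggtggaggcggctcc
Hsph1: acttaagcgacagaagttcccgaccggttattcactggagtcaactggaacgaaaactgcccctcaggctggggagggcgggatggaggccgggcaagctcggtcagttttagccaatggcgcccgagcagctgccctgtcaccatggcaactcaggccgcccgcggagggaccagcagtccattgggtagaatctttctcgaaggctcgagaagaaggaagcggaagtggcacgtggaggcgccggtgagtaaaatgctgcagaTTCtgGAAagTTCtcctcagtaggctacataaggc
Hspd1: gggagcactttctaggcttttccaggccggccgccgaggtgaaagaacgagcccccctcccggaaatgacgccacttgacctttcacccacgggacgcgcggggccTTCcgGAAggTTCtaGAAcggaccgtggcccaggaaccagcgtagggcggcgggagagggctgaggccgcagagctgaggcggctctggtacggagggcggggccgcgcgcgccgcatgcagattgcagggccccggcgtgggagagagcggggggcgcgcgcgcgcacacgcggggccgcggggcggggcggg
Cct2: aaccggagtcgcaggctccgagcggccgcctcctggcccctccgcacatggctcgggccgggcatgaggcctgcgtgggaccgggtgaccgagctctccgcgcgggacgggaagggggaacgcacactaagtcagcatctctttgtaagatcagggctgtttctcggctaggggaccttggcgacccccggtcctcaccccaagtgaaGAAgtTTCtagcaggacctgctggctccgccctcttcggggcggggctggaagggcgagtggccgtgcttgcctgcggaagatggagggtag
The heat shock element was searched on both strands as 3 repeats, GAANNTTCNNGAA, found in 0.662% of genes with a window, and as 2 repeats, GAANNTTC, found in 9.04%; the longer form contains the shorter. The longer form was present in Hsph1, Hspd1 and Hspe1, and the shorter form also in Cct2 and Dnaja1. Hspd1 and Hspe1, which encode the mitochondrial chaperonin Hsp60 and its lid Hsp10, are read in opposite directions, and the same bases at chr1:55088059-55088076 lie in the windows of both. The unfolded protein response element TGACGTGG, found in 0.714% of genes with a window, was in none of the folding genes' windows. A match is a description of letters, and no match says only that the letters are not in the window.

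Among the folding genes, 16 were higher and 2 lower in Nrp-1+ iTreg, and 22 were not called (limma, adjusted p under 0.05). With a library left out, the lower calls numbered between 0 and 4, and neither of the 2, Cct4 and Dnajb9, held under every alternative tried. Of all 10467 genes tested, 20.9% were called higher and 20% lower. The median log2 fold change of the 40 genes was 0.05, against -0.02 over all genes tested. The groups did not overlap for 21 of the 40 genes, 18 of them higher and 3 lower in Nrp-1+ iTreg, where 39.5% of all genes tested did not overlap. The calls were spread unevenly over the cell's compartments: the ER held 10 of the 16 higher genes, the cytosolic heat shock proteins 4, and the chaperonin and the unfolded protein response genes 1 each. In bulk samples, fewer cells of a type and less RNA per cell cannot be told apart.

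**Figure D1:**
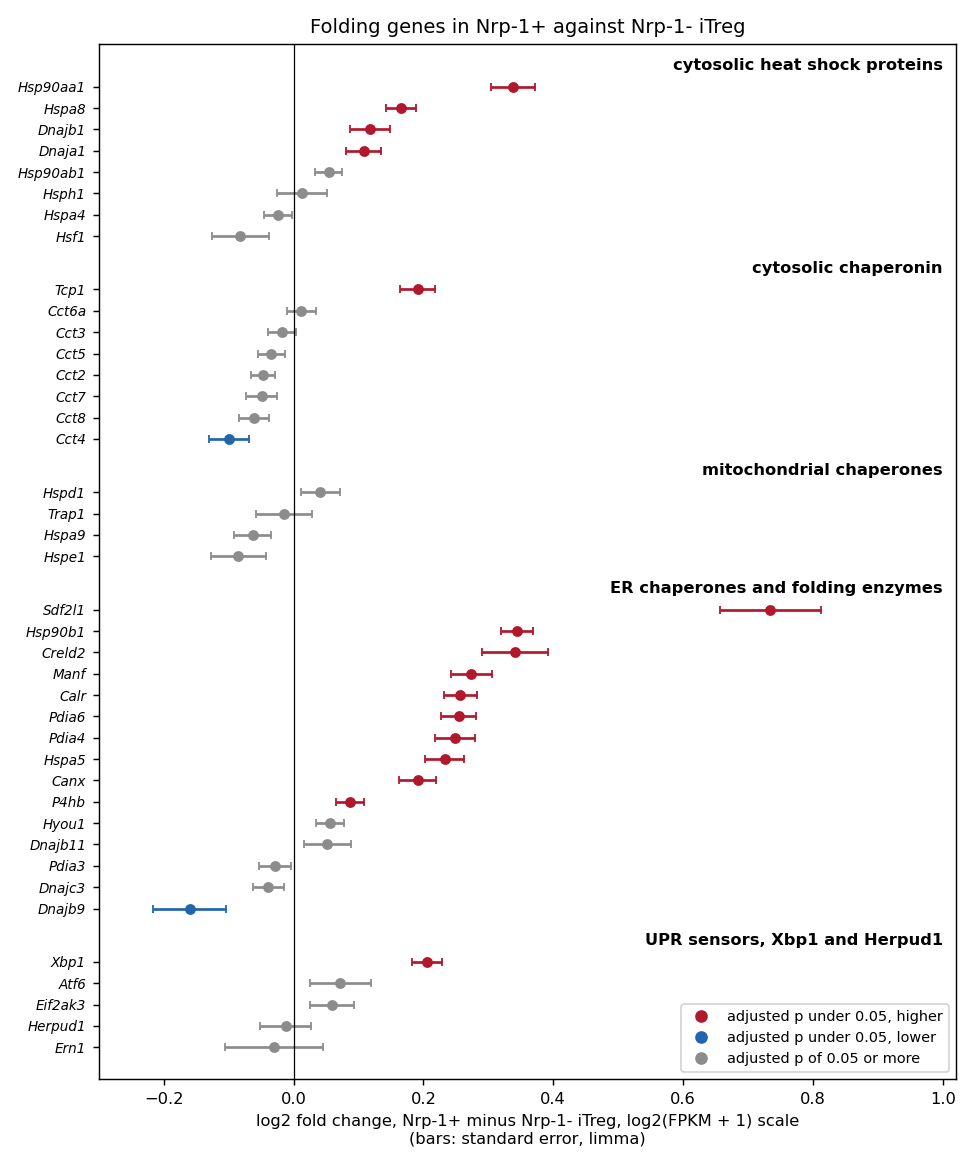
Log2 fold change of each of the 40 folding genes, Nrp-1+ minus Nrp-1- iTreg on the log2(FPKM + 1) scale, grouped by compartment, with points for the limma estimate and bars for its standard error. The higher calls gather in the ER group, where Sdf2l1 reaches 0.73, while the 4 mitochondrial genes lie between -0.09 and 0.04.

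Most ER chaperones and folding enzymes rose in Nrp-1+ iTreg. Of the 15 ER genes, 10 rose, 1 fell and 4 were not called, with a median log2 fold change of 0.23. Among all genes tested, 20.9% were called higher and 20% lower. For 11 of the 15, every Nrp-1+ library lay above every Nrp-1- library. In either direction, 39.5% of all genes tested did not overlap. Their summed level was between 1348 and 1373 FPKM in Nrp-1+ iTreg and between 1195 and 1235 FPKM in Nrp-1- iTreg, a difference of 12.4% of the Nrp-1- mean.

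Sdf2l1, a subunit of the ER chaperone complex built around BiP, changed most among the 40 genes. Its levels in replicates 1 to 4 were 24.2, 23.5, 26.4 and 25.6 FPKM in Nrp-1+ iTreg and 15.4, 15.9, 15.0 and 12.2 FPKM in Nrp-1- iTreg. The lowest Nrp-1+ library stood well above the highest Nrp-1- library, and the means differed by 70.3% (log2 fold change 0.73 ± 0.078 SE, limma adjusted p = 0.00017). By size of change it stood at position 468 of the 10467 genes tested.

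The mRNAs for Grp94 and BiP, the main HSP90 and HSP70 of the ER, rose as well. Hsp90b1, which encodes Grp94, the ER form of HSP90 that folds integrins and Toll-like receptors, was at 176.3, 177.1, 173.5 and 168.0 FPKM in Nrp-1+ iTreg and at 132.8, 138.4, 138.6 and 137.0 FPKM in Nrp-1- iTreg. It was 27.1% higher (log2 fold change 0.34 ± 0.024 SE, limma adjusted p = 1.54e-05), with a gap between the groups larger than the range within either. Hspa5, which encodes BiP, the HSP70 of the ER and the protein that holds the stress sensors inactive, was at 145.0, 145.3, 140.2 and 134.6 FPKM against 119.2, 120.7, 123.5 and 116.8 FPKM. Its rise was 17.7% (0.23 ± 0.030, adjusted p = 0.000524), and the groups did not overlap. Hyou1, the large HSP70 relative that exchanges nucleotide on BiP, was at 24.9 ± 0.432 and 23.9 ± 0.341 FPKM, and did not pass the test although the groups did not overlap (adjusted p = 0.0727).

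The calnexin cycle, which retains glycoproteins until they are folded, had both of its lectins higher. Calr, the soluble lectin calreticulin, was at 247.4, 244.5, 250.2 and 246.5 FPKM in Nrp-1+ iTreg and at 203.1, 200.1, 213.8 and 209.6 FPKM in Nrp-1- iTreg, a rise of 19.6% (log2 fold change 0.26 ± 0.025 SE, limma adjusted p = 9.24e-05). Canx, its membrane-bound relative calnexin, was at 80.6, 83.4, 81.4 and 80.6 FPKM against 73.0, 69.2, 74.0 and 69.0 FPKM, a rise of 14.3% (0.19 ± 0.028, adjusted p = 0.00106). Neither gene showed any overlap between the groups. Pdia3, the disulfide isomerase that both lectins recruit, was at 274.3 ± 6.09 and 279.8 ± 6.23 FPKM and was not called (adjusted p = 0.391), with a 95% interval of the log2 difference from -0.09 to 0.03.

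The other disulfide isomerases, which form and rearrange disulfide bonds, were higher to unequal degrees. Pdia6 was at 43.2, 44.8, 45.8 and 44.4 FPKM in Nrp-1+ iTreg and at 38.6, 36.3, 37.2 and 36.6 FPKM in Nrp-1- iTreg, and rose by 19.8% (log2 fold change 0.25 ± 0.027 SE, limma adjusted p = 0.000171). Pdia4 was at 53.0, 54.8, 53.7 and 55.5 FPKM against 43.6, 44.6, 47.8 and 46.0 FPKM, and rose by 19.2% (0.25 ± 0.031, adjusted p = 0.000433). P4hb, the founding member of the family, changed less. Its levels were 130.1, 129.3, 129.3 and 135.5 FPKM against 123.9, 121.4, 123.6 and 124.4 FPKM, a rise of 6.25% (0.09 ± 0.022, adjusted p = 0.013), which was not called after quantile normalization (0.06, adjusted p = 0.294). All 3 were free of overlap between the groups.

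Manf and Creld2 are small ER proteins that are secreted when ER calcium falls. Manf was at 50.5, 48.3, 49.1 and 49.6 FPKM in Nrp-1+ iTreg and at 39.7, 39.2, 41.0 and 42.9 FPKM in Nrp-1- iTreg, and rose by 21.4% (log2 fold change 0.27 ± 0.031 SE, limma adjusted p = 0.000245). Creld2 was at 18.8, 16.7, 19.1 and 17.8 FPKM against 13.7, 13.4, 15.1 and 14.1 FPKM, and rose by 28.6% (0.34 ± 0.051, adjusted p = 0.00104). In both genes the lowest Nrp-1+ library was above the highest Nrp-1- library.

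Of the 3 J-domain proteins of the ER in the set, which hand clients to BiP, none was called higher. Dnajb9, known for holding Ire1 inactive together with BiP, was at 8.62, 8.58, 8.96 and 9.17 FPKM in Nrp-1+ iTreg and at 9.16, 9.79, 11.2 and 9.85 FPKM in Nrp-1- iTreg. The groups overlapped at the top Nrp-1+ and lowest Nrp-1- library, and the difference of -11.7% passed the test by a narrow margin (log2 fold change -0.16 ± 0.056 SE, limma adjusted p = 0.049982). This call was lost under 12 of the 20 alternatives tried, with adjusted p from 0.052 to 0.113. It held when Nrp-1- replicate 1 was left out (adjusted p = 0.0244) but not when any other library was. Dnajb11 was at 55.1 ± 1.53 and 53.1 ± 2.43 FPKM (adjusted p = 0.277), and Dnajc3, an inhibitor of Perk, at 36.0 ± 0.925 and 37.0 ± 0.493 FPKM (adjusted p = 0.228). Neither was called, with 95% intervals of the log2 difference from -0.03 to 0.13 for Dnajb11 and from -0.09 to 0.02 for Dnajc3.

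Of the 7 ER genes with the ER stress response element in a window, 6 were called higher (Calr, Canx, Creld2, Hsp90b1, Hspa5 and Pdia6), and Dnajc3 was not called. Their median log2 fold change was 0.25. Among all genes tested, 20.9% were called higher and 20% lower. Of the 6 ER genes with a window and no match, 3 were higher (Sdf2l1, Pdia4 and P4hb), 1 was lower (Dnajb9) and 2 were not called, with a median of 0.07. Manf, higher, and Hyou1, not called, had no window. The difference between these groups of genes was not tested. Outside the set, 30 genes held the element, of which 5 were expressed enough to be tested (Adcy3, Alg12, Hnrnpa3, Pan2 and Syvn1). These 5, looked at after the values of the set were known, had 1 gene called higher and a median of -0.01.

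Xbp1, a transcription factor of the unfolded protein response, was higher, and the sensors were not called. Xbp1 was at 51.5, 51.0, 50.5 and 49.4 FPKM in Nrp-1+ iTreg and at 43.4, 42.6, 44.3 and 44.7 FPKM in Nrp-1- iTreg, without overlap, and rose by 15.6% (log2 fold change 0.21 ± 0.023 SE, limma adjusted p = 0.000247). A value per gene does not separate the spliced from the unspliced mRNA. The sensor genes were low. Ern1 was at 1.67 ± 0.217 and 1.72 ± 0.127 FPKM (adjusted p = 0.779), Atf6 at 3.88 ± 0.210 and 3.64 ± 0.158 FPKM (adjusted p = 0.253), and Eif2ak3 at 12.1 ± 0.480 and 11.6 ± 0.316 FPKM (adjusted p = 0.204). Herpud1, which links the response to degradation of misfolded ER proteins, was at 44.9 ± 1.50 and 45.4 ± 2.25 FPKM (adjusted p = 0.827), with a 95% interval of the log2 difference from -0.10 to 0.08. The interval for Ern1, from -0.20 to 0.14, was the widest of these.

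**Figure D2:**
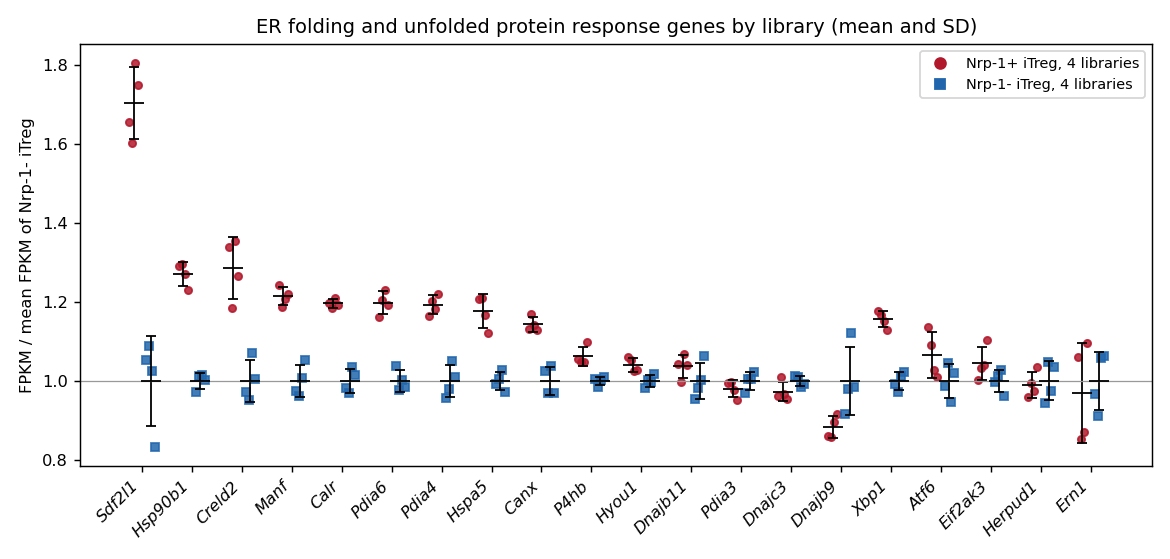
Level of each ER folding and unfolded protein response gene in each of the 8 libraries, as FPKM divided by the mean FPKM of Nrp-1- iTreg, with points for libraries and bars for the mean and SD (n = 4). Sdf2l1 is highest at a mean of 1.70, and the points of the groups are separate from Sdf2l1 to Hyou1 and for Xbp1.

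Other genes of the ER pathways, from lists of names, moved in both directions. Of 19 listed regulators of the unfolded protein response, 17 were tested, 2 were higher and 4 lower, with a median log2 fold change of 0.01. The shares over all genes tested were 20.9% higher and 20% lower. Ppp1r15a, which encodes the phosphatase subunit that ends Perk signalling, was at 17.5, 17.8, 18.2 and 17.6 FPKM in Nrp-1+ iTreg and at 21.8, 23.4, 22.6 and 23.6 FPKM in Nrp-1- iTreg (log2 fold change -0.34 ± 0.029 SE, limma adjusted p = 4.28e-05). Ddit3, which encodes the stress factor Chop, was at 35.2, 30.0, 35.1 and 36.1 FPKM against 38.8, 40.3, 45.3 and 42.4 FPKM (-0.28 ± 0.067, adjusted p = 0.0104). In both, every Nrp-1+ library lay below every Nrp-1- library. Creb3 was lower too (-0.22, adjusted p = 0.00264), and Atf5 (0.27, adjusted p = 0.0213) and Nfya, a subunit of NF-Y (0.14, adjusted p = 0.0183), were higher.

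Of 40 listed genes for oxidative folding, prolyl isomerisation and glycosylation in the ER, 30 were tested, 6 were higher and 2 lower, with a median of 0.03. Over all genes tested, 20.9% were called higher and 20% lower. Fkbp2, a prolyl isomerase of the ER, was at 65.9, 60.6, 62.5 and 59.0 FPKM against 38.4, 36.1, 41.7 and 43.8 FPKM (log2 fold change 0.62, limma adjusted p = 0.000108), and Prdx4, the ER peroxiredoxin that oxidises disulfide isomerases, at 71.1 ± 4.78 and 49.1 ± 1.89 FPKM (0.52, adjusted p = 8.14e-05). Dnajc10, an ER disulfide reductase with a J domain, was higher by 0.24 (adjusted p = 0.00149). Ero1l, the oxidase that recharges disulfide isomerases, was lower (-0.17, adjusted p = 0.000304), as was Sec63 of the translocon (-0.13, adjusted p = 0.0258). Of 28 listed genes for ER-associated degradation, 26 were tested, and 1 was higher and 6 lower, with a median of -0.03. The ubiquitin ligase Rnf5 was the higher one (0.23, adjusted p = 0.00175), while Ube2j2 (-0.23), H13 (-0.18) and Ngly1 (-0.17) changed most among the lower ones, with adjusted p of 0.0147, 0.00162 and 0.00328.

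In the cytosol, 4 of the 8 heat shock genes rose, none fell, and the median log2 fold change was 0.08. Among all genes tested, 20.9% were called higher and 20% lower. After quantile normalization 1 of the 8, Hsp90aa1, was called higher, as were 1783 of all 10467 genes tested. Their summed level was between 2594 and 2659 FPKM in Nrp-1+ iTreg and between 2354 and 2407 FPKM in Nrp-1- iTreg, a difference of 10.6%. Most of that sum was Hspa8, the constitutive HSP70, which was the highest of the 40 genes and stood at 1724, 1737, 1692 and 1731 FPKM against 1520, 1515, 1550 and 1548 FPKM. It rose by 12.2% (log2 fold change 0.17 ± 0.023 SE, limma adjusted p = 0.000682), with no overlap. After quantile normalization its log2 fold change was 0.26 with an adjusted p of 0.301.

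The paired HSP90 genes of the cytosol did not move equally. Hsp90aa1, the stress-inducible form, was at 178.8, 182.5, 173.8 and 163.1 FPKM in Nrp-1+ iTreg and at 137.6, 139.8, 137.2 and 136.4 FPKM in Nrp-1- iTreg, and rose by 26.7% (log2 fold change 0.34 ± 0.034 SE, limma adjusted p = 0.000129). Hsp90ab1, the constitutive form, was at 562.6, 559.5, 548.9 and 556.5 FPKM against 525.6, 531.1, 545.6 and 542.8 FPKM, and its 3.84% difference was not called (adjusted p = 0.0712) although the groups did not overlap. The ratio of Hsp90aa1 to Hsp90ab1 within a library was 0.318, 0.326, 0.317 and 0.293 against 0.262, 0.263, 0.251 and 0.251. The difference in the ratio was 0.29 on the log2 scale (two-sided exact permutation test, p = 0.0286, the smallest that 4 against 4 allows; 0.0429 after adjustment over the 3 ratios tested). With Nrp-1+ replicate 1, 2 or 3 or Nrp-1- replicate 2, 3 or 4 left out, the difference was between 0.27 and 0.30 and the exact p was still 0.0286, while the p adjusted over the 3 ratios was 0.0857. These genes are close paralogs, and reads they share are uncertain.

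The HSP40 partners of Hspa8 rose by less. Dnaja1 was at 55.5, 56.4, 55.5 and 52.5 FPKM in Nrp-1+ iTreg and at 49.7, 50.6, 51.3 and 52.1 FPKM in Nrp-1- iTreg, a rise of 7.99% (log2 fold change 0.11 ± 0.027 SE, limma adjusted p = 0.014). Dnajb1 was at 56.7, 53.1, 54.4 and 52.6 FPKM against 47.8, 50.9, 50.7 and 50.1 FPKM, a rise of 8.67% (0.12 ± 0.031, adjusted p = 0.018). The groups came close but did not overlap in either gene, and after quantile normalization neither was called, at log2 fold changes of 0.10 for Dnaja1 (adjusted p = 0.0725) and 0.11 for Dnajb1 (adjusted p = 0.0887). Hsf1, the activator of the heat shock response, was at 14.9 ± 0.281 and 15.9 ± 1.04 FPKM (adjusted p = 0.175). The nucleotide exchange factors Hspa4 (46.0 ± 0.454 and 46.8 ± 0.975 FPKM, adjusted p = 0.393) and Hsph1 (9.64 ± 0.510 and 9.54 ± 0.232 FPKM, adjusted p = 0.823) were not called either. The stress-inducible HSP70 genes Hspa1a and Hspa1b, looked up after the values of the set were known, reached at most 0.189 and 0.372 FPKM in any library and were under the expression filter.

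Of 20 listed co-chaperones of HSP90, 6 were higher and 4 lower, with a median log2 fold change of -0.04. For comparison with this and the following lists, 20.9% of all genes tested were called higher and 20% lower. Fkbp5, a co-chaperone of steroid receptors, was at 57.7 ± 0.758 and 42.1 ± 0.682 FPKM (log2 fold change 0.45, limma adjusted p = 1.14e-06). Stip1, which passes clients from HSP70 to HSP90, was at 68.9 ± 2.07 and 55.1 ± 0.998 FPKM (0.32, adjusted p = 3.89e-05), and Pih1d1 was higher by 0.35 (adjusted p = 0.00036). Ahsa2, Tomm70a and Tomm34 were lower by between -0.15 and -0.12, with adjusted p of 0.0207, 0.00731 and 0.0313. Of 27 other HSP70 and small heat shock genes 16 were tested, with 6 higher and none lower and a median of 0.07, led by Hspb6 (0.48, adjusted p = 0.0129), Hspa2 (0.36, adjusted p = 0.00432) and Hspa4l (0.30, adjusted p = 0.000752). A further list of 21 J-domain proteins had 1 higher and 6 lower, with a median of -0.09. The higher one was Dnajc9, a histone chaperone (0.51, adjusted p = 9.50e-06), and Dnajc16, Dnaja4 and Dnajc7 (-0.22, -0.18 and -0.15) changed most among those lower, with adjusted p of 0.0231, 0.00412 and 0.0068.

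The cytosolic chaperonin is a double ring of 8 kinds of subunit that folds actin and tubulin, and its subunits did not move together. Of the 8, 1 rose, 1 fell and 6 were not called, with a median log2 fold change of -0.04, and the summed level was between 1218 and 1255 FPKM in Nrp-1+ iTreg and between 1243 and 1275 FPKM in Nrp-1- iTreg. Among all genes tested, 20.9% were called higher and 20% lower. Tcp1, the alpha subunit, was at 105.7, 99.5, 104.1 and 99.9 FPKM against 90.1, 88.4, 91.9 and 87.5 FPKM, and rose by 14.3% (0.19 ± 0.027 SE, limma adjusted p = 0.000857). It was the only one of the 8 subunits called higher. Its share of the summed chaperonin FPKM was 8.28% ± 0.19 in Nrp-1+ iTreg and 7.09% ± 0.18 in Nrp-1- iTreg.

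Tcp1 overlaps its neighbours on the genome, and the sources differ on whether the libraries kept strand. In GENCODE M21, 571 of its exonic bases (11.4%) lie over Acat3 and 141 (2.8%) over Mrpl18, both on the opposite strand. Acat3 was at 16.8 and 13.3 FPKM (log2 fold change 0.32, limma adjusted p = 0.00462) and Mrpl18 at 107.7 and 93.3 FPKM (0.21, adjusted p = 0.00204), both higher in Nrp-1+ iTreg as Tcp1 was. Their part in the Tcp1 value was not tested.

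Cct4, the delta subunit, was at 220.4, 212.3, 205.3 and 200.4 FPKM in Nrp-1+ iTreg and at 221.1, 222.8, 225.7 and 228.2 FPKM in Nrp-1- iTreg. It fell by 6.62% (log2 fold change -0.10 ± 0.031 SE, limma adjusted p = 0.0333), with the top Nrp-1+ library just under the lowest Nrp-1- library, and the call was lost under 9 of the 20 alternatives. Leaving out replicate 2, 3 or 4 of either group ended it, with adjusted p from 0.0523 to 0.0852, and leaving out replicate 1 of either group did not. Cct2 (255.6 ± 4.19 and 264.0 ± 1.63 FPKM, adjusted p = 0.0813) and Cct8 (104.2 ± 1.48 and 108.7 ± 2.66 FPKM, adjusted p = 0.066) were lower in every Nrp-1+ library but did not pass the test. Cct8 passed it without Nrp-1- replicate 1 (adjusted p = 0.0256) and with correction for GC content and length (adjusted p = 0.034). Cct8 shares 192 exonic bases with Usp16 on the opposite strand, which was at 19.3 and 22.3 FPKM (-0.20, adjusted p = 0.00398). The groups overlapped for Cct3, Cct5, Cct6a and Cct7, whose log2 differences lay between -0.05 and 0.01 with adjusted p from 0.134 to 0.688. Of 10 listed prefoldin and chaperonin partner genes, 9 were tested, none was higher, and Pfdn5 was lower (369.9 ± 6.26 and 429.5 ± 27.4 FPKM, -0.21, adjusted p = 0.0055), around a median of 0.00.

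None of the 4 mitochondrial chaperones was called by limma, and none had an unadjusted p under 0.05. Hspa9, the mitochondrial HSP70 that pulls proteins through the inner membrane, was at 43.6 ± 1.42 and 45.6 ± 0.972 FPKM (log2 fold change -0.06, 95% interval -0.13 to 0.00, adjusted p = 0.11). Hspd1 was at 70.2 ± 2.11 and 68.2 ± 2.11 FPKM (0.04, -0.03 to 0.11, adjusted p = 0.317) and Hspe1 at 158.5 ± 6.02 and 168.3 ± 8.57 FPKM (-0.09, -0.18 to 0.01, adjusted p = 0.141). Trap1, the HSP90 of mitochondria, was at 24.3 ± 1.26 and 24.6 ± 0.994 FPKM (-0.01, -0.11 to 0.08, adjusted p = 0.811). Hspa9 passed the test without Nrp-1+ replicate 2 (adjusted p = 0.0488), and Hspe1 without Nrp-1- replicate 1 (adjusted p = 0.0423). All 4 overlapped between the groups, and their sum was between 289.0 and 308.2 FPKM against 293.3 and 319.1 FPKM. Of 19 other mitochondrial folding and proteolysis genes, 1 was higher, the protease Htra2 (0.38, adjusted p = 0.00404), and 7 were lower, including Pam16 of the import motor (-0.30, adjusted p = 0.000822), the protease subunit Afg3l2 (-0.18, adjusted p = 0.00171) and Dnajc15 (-0.18, adjusted p = 0.0455), with a median of -0.09. Over all genes tested, 20.9% were called higher and 20% lower.

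Hspd1 and Hspe1, which share the promoter region shown above, differed in their balance. The ratio of Hspd1 to Hspe1 within a library was 0.459, 0.451, 0.437 and 0.424 in Nrp-1+ iTreg and 0.422, 0.380, 0.418 and 0.403 in Nrp-1- iTreg. The lowest Nrp-1+ value was just above the highest Nrp-1- value, a log2 difference of 0.13 (two-sided exact permutation test, p = 0.0286, or 0.0429 after adjustment over the 3 ratios). The same 6 omissions as for the HSP90 ratio gave a difference between 0.10 and 0.14, an exact p of 0.0571 and an adjusted p of 0.0857. The annotation names 5 pseudogenes for Hspd1 and 6 for Hspe1, none of them in the table, so reads shared with these copies are uncertain. The genes also share 112 exonic bases on opposite strands. The ratio of Hspa5 to Hspa8, the HSP70 of the ER to that of the cytosol, was 0.0841, 0.0837, 0.0829 and 0.0778 against 0.0784, 0.0797, 0.0797 and 0.0755. These values overlapped between the groups, and the difference of 0.07 on the log2 scale gave an exact permutation p of 0.114. Without Nrp-1+ replicate 4 the groups were separate and the difference was 0.09, with an adjusted exact p of 0.0286.

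**Figure D3:**
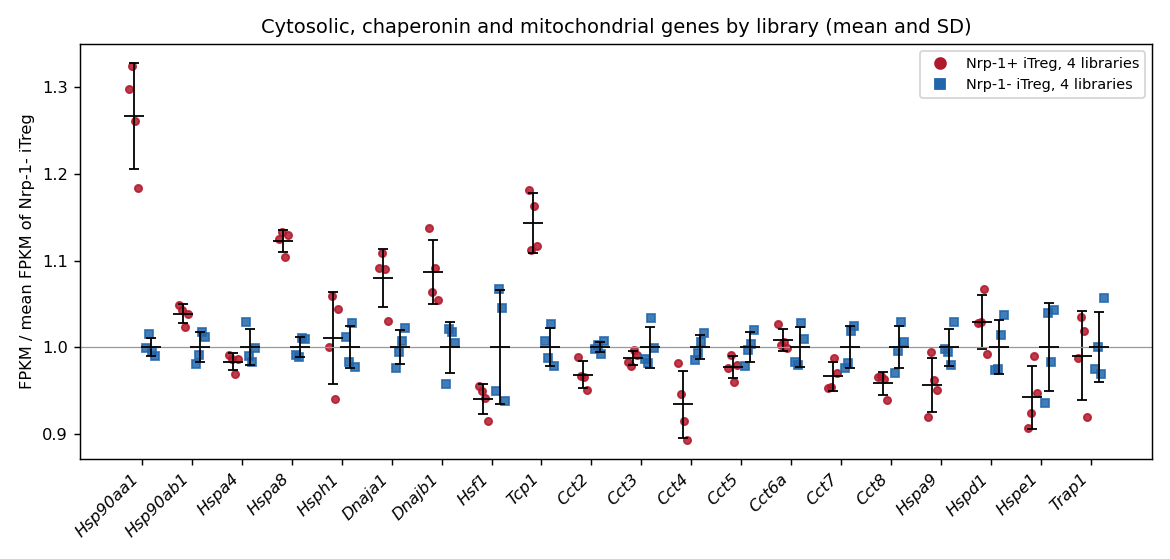
Level of each cytosolic heat shock, chaperonin and mitochondrial gene in each of the 8 libraries, as FPKM divided by the mean FPKM of Nrp-1- iTreg, with points for libraries and bars for the mean and SD (n = 4). Hsp90aa1 is highest at a mean of 1.27 and Tcp1 is at 1.14, while the other chaperonin subunits lie between 0.934 and 1.01.

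**Figure D4:**
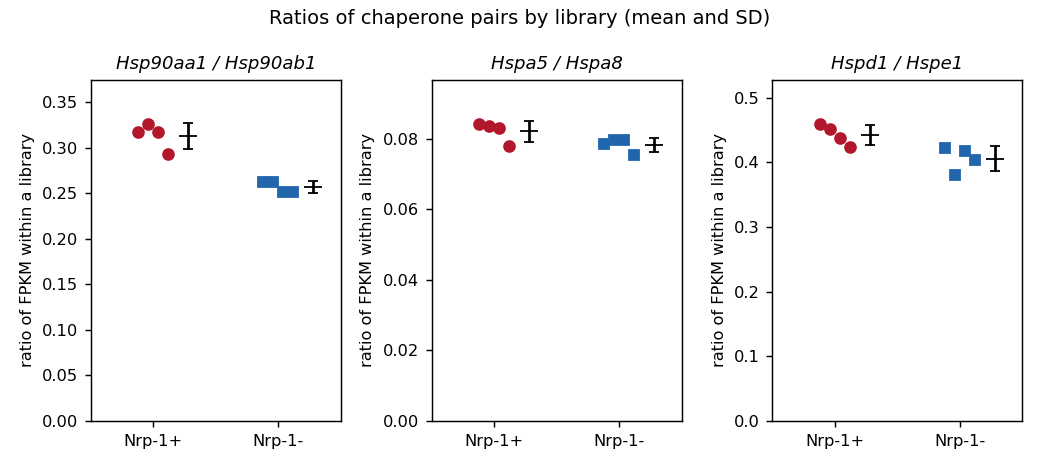
Ratio of FPKM within a library for Hsp90aa1 to Hsp90ab1, Hspa5 to Hspa8 and Hspd1 to Hspe1, with points for the 4 libraries of each group and bars for the mean and SD. The mean ratios are 0.313 and 0.257, 0.0821 and 0.0783, and 0.443 and 0.406 in Nrp-1+ and Nrp-1- iTreg, and the points of the groups overlap for Hspa5 to Hspa8.

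In level, the folding genes spanned from Hspa8, at a mean of 1627 FPKM over the 8 libraries, down to Ern1. Hsp90ab1 (546.6 FPKM), Pdia3 (277.1 FPKM), Cct5 (270.9 FPKM), Cct2 (259.8 FPKM) and Calr (226.9 FPKM) followed Hspa8. Sdf2l1 and Creld2 were among the less abundant ER genes, and Pdia3, which was not called, was the most abundant of them.

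Cell cycle genes also differed between the subsets: all 20 listed were higher in Nrp-1+ iTreg, with a median log2 fold change of 0.91 and a summed level between 2491 and 2551 FPKM against 1385 and 1403 FPKM. Mki67, the proliferation marker, was at 82.3 ± 4.59 and 46.3 ± 1.40 FPKM. Their part in the higher folding genes was not tested.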

How the data were processed

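RNA from 4 Nrp-1+ and 4 Nrp-1- iTreg samples was sequenced, and the values used are FPKM per gene symbol, deposited by the authors as 1 table of 23361 symbols and 8 sample columns. The study's methods name CLC Genomics Workbench and Cufflinks, the submitters' processing notes name builds GRCm38 and mm10, and the labels name a SMARTER library kit where the methods name a directional one, so whether strand was kept is unsure. The number of columns not mapped to a sample was 0. FPKM carries no read count, so only relative depth is known and no counting interval is given.

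Here FPKM was taken as log2(FPKM + 1), genes averaging 1 FPKM or more over the libraries were kept (10467, all 40 folding genes among them), and Nrp-1+ was set against Nrp-1- with limma 3.58.1 in R 4.3.3, using eBayes with a trend, a two-sided test and Benjamini-Hochberg adjustment over all genes tested, with calls at an adjusted p under 0.05. Fold changes on this scale understate the change of low genes. The script was tested on simulated data. Ratios of chaperone pairs were compared by exact permutation tests, whose smallest p with 4 against 4 is 0.0286.

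All 40 folding genes are named, with up to 3 called genes per direction from each other pathway list, Nrp1, Foxp3 and Mki67. Lists of other pathways, cell cycle, immediate early and cell type marker genes were described by counts and medians. The 40 genes and all lists were chosen with earlier results of these data known. Alternatives covered pseudocounts, filters, normalization, GC and length, the replicate number as a block, the trend, and leaving out each library. Gene overlaps come from GENCODE M21 and promoter windows from RefSeq.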

Additional observations from a re-analysis of the deposited data

Results flagged for a closer look

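Among the 40 folding genes and 3 ratios in 2 groups of 4 libraries, which makes 86 groups of values, 2 had a library far from its group by Dixon's test, where chance alone gives about 1 in 20, or 4.3. For Cct8, a subunit of the cytosolic chaperonin, replicate 4 of Nrp-1+ iTreg was the lowest of its group at 102.0 FPKM, with the others between 104.7 and 105.1 FPKM. For P4hb, an ER disulfide isomerase, the same replicate was the highest of its group at 135.5 FPKM, with the others between 129.3 and 130.1 FPKM.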

How the results depend on the processing

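Of the 18 called folding genes, 11 kept their call under all 20 alternatives (Hsp90aa1, Tcp1, Hspa5, Hsp90b1, Calr, Pdia4, Pdia6, Sdf2l1, Manf, Creld2 and Xbp1), and none of the 18 changed sign. ER genes called higher, 10 as reported, were 9 after quantile normalization, which lost P4hb, and 8 with GC and length correction plus the replicate block, which lost Canx (limma adjusted p = 0.102) and P4hb (0.163). The cytosolic heat shock genes called higher, 4 as reported, became 1 after quantile normalization, 2 with the replicate block and 1 with GC and length correction plus the replicate block. All folding genes called lower, 2 as reported, became 1 with no filter, after quantile normalization and with eBayes without a trend, 0 with the replicate block alone or with the correction, and between 0 and 4 when a library was left out. The chaperonin's 1 lower call became 0 after quantile normalization and with the replicate block alone or with the correction, 2 with the correction alone, and between 0 and 2 without a library, and the ER's 1 lower call became 0 with no filter, no trend, the block or the correction, and between 0 and 1 without a library. Lower mitochondrial calls were between 0 and 1 without a library. The Hsp90aa1 to Hsp90ab1 ratio differed by 0.27 to 0.32 (log2) without a library and by 0.29 with the replicate block, the Hspd1 to Hspe1 ratio by 0.10 to 0.15 and 0.13, and the Hspa5 to Hspa8 ratio by 0.050 to 0.094 without a library. With 4 pairs the smallest exact p is 0.125, which both ratios reached under the block. When a library was left out, the exact p of the Hsp90aa1 to Hsp90ab1 ratio stayed at 0.0286 and that of the Hspd1 to Hspe1 ratio rose as far as 0.0571, and the adjusted p of both rose as far as 0.0857.

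Hspa8 (0.14, limma adjusted p = 0.0862), Dnaja1 (0.09, 0.101) and Dnajb1 (0.11, 0.143) were not called with the correction plus the replicate block, nor were Dnaja1 (0.11, 0.057) and Dnajb1 (0.12, 0.0708) with the block alone. Cct8 was called without Nrp-1- replicate 1 (limma adjusted p = 0.0256) and with GC and length correction (0.034), Hspe1 without Nrp-1- replicate 1 (0.0423) and Hspa9 without Nrp-1+ replicate 2 (0.0488). Genes that were not called changed sign as follows: Hsph1 to -0.0066 after quantile normalization, -0.0039 with the correction, with or without the block, and -0.0082 to 0.044 without a library; Cct6a to -0.0092 with the correction, with or without the block; and, without a library, Trap1 (-0.036 to 0.019), Herpud1 (-0.039 to 0.010) and Ern1 (-0.069 to 0.0068). The cause of these changes was not tested. Same-numbered libraries of the 2 groups did not deviate together (correlations -0.537, -0.0201, 0.0104 and -0.4997). Without the short RNA genes the correlations were -0.0360, -0.0645, -0.0800 and -0.107. The numbers were therefore not taken to pair samples. With no read counts, no precision from depth can be given for low genes such as Ern1 and Atf6.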

Other observations

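Immediate early genes, which T cells switch on within minutes of receptor signalling and which handling can also raise, were listed beside the folding genes. Of the 17 tested, 5 were higher and 1 lower in Nrp-1+ iTreg, with a median log2 fold change of 0.07, and their summed level was between 1379 and 1482 FPKM against 1355 and 1440 FPKM, which overlapped. Over all genes tested, 20.9% were called higher and 20% lower. Atf4, the factor translated when Perk is active, was looked up after the values were known and stood at 56.6 and 57.6 FPKM (log2 fold change -0.03, limma adjusted p = 0.653). Syvn1, the ubiquitin ligase of ER-associated degradation, carries the ER stress response element in a promoter window and was not called (log2 fold change -0.01, adjusted p = 0.894).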
